A study of Mus musculus with 6 samples.

Results

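The kinetochore is the protein platform that joins each centromere to the microtubules of the mitotic spindle. Until every kinetochore is attached, the spindle assembly checkpoint holds back CDC20, the activator of the anaphase-promoting complex (APC/C), a ubiquitin ligase. Once the checkpoint is satisfied, the APC/C marks securin and cyclin B for destruction, separase cuts the cohesin that holds sister chromatids together, and the cell leaves mitosis. Transcripts of most of these proteins accumulate in G2 and M phase, and they are widely used as markers of dividing cells in leukemia.

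The genes described here are 46 genes of the kinetochore, the spindle checkpoint and mitotic exit, chosen by symbol from a list of known roles. That list was drawn up with earlier results of these data known. All 46 were found, 1 row each, among 35932 genes of the deposited count table, and all 46 passed the low-count filter that left 13414 genes for testing. The smallest count of any of them in any library was 334. The libraries came from mouse bone marrow with the label of myeloid leukemic blasts and the genotype MLL-AF9+, a fusion of the Kmt2a and Mllt3 genes that drives acute myeloid leukemia. The 3 sensitive libraries carried the treatment label vehicule (vehicle), and the 3 resistant libraries the label Cytarabin+Doxorubicin, a nucleoside analog and an anthracycline. Every library of either group carries MLL-AF9, and resistance and drug exposure cannot be told apart because the labels pair them in all 6 libraries. Strain, age, dose, the time between drug and harvest, and whether replicates are separate animals were not stated in the labels. The p-values therefore rest on differences between replicate libraries that may be only technical.

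Depth ran from 22206341 to 31856009 counts per library. Leukemic and progenitor genes were expressed in both groups, among them Hoxa9 with 199 ± 16.4 CPM in the sensitive group and 269 ± 16.7 CPM in the resistant group and Kit with 134 ± 5.06 and 109 ± 4.996 CPM (SD, n = 3 each). CPM are counts scaled to a common library size by TMM. Several lists of markers used for other marrow cell types were lower in the resistant libraries. The 8 erythroid markers summed to 46.5 to 81.5 CPM in the sensitive libraries and 0.977 to 2.82 CPM in the resistant ones (6 of 7 tested lower). The 10 neutrophil maturation markers summed to 206 to 250 CPM and 28.9 to 49.4 CPM (9 of 9 tested lower), and the 6 monocyte markers to 866 to 957 CPM and 383 to 450 CPM (5 of 6 lower). None of these markers was at 0 in all 6 libraries. The 6 B cell markers summed to 38.5 to 41.4 CPM in the sensitive libraries and 38.3 to 40.9 CPM in the resistant ones. The 6 T cell markers summed to 5.40 to 7.14 CPM and 3.72 to 4.92 CPM (1 of 2 tested lower), and the 4 megakaryocyte markers to 9.18 to 10.3 CPM and 5.66 to 6.78 CPM (1 of 2 lower). Whether these transcripts came from other cells or from the blasts themselves was not tested. Their part in the mitotic gene results was not tested either. In such bulk libraries, fewer cells in mitosis and less of a transcript per cell cannot be told apart.

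Cell cycle genes of G2 and M phase carry short promoter elements that are textbook features of their periodic transcription: the cell cycle genes homology region (CHR), often accompanied by CCAAT boxes bound by NF-Y, and in other genes E2F sites. RefSeq promoter windows (build GRCm38.p6, 250 bases before to 50 after the annotated start) were at hand for 39 of the 46 genes. Below are the 100 bases before and 50 after the start of 4 genes that fell in resistant blasts, of Cdc20, which did not pass the test, and of Pttg1, the 1 gene that rose, to show how the elements are laid out in each. Letters in capitals are matches to the CHR (TTTGAA or TTCGAA), to the CCAAT box (CCAAT) or to an E2F site (TTGGCGC or TTCGCGC or TTCCCGC), each on either strand. TTCGAA is its own reverse complement, and no motif contains another. The windows lie at chr2:131186848-131186997 (+) for Cdc25b, chr2:164769829-164769978 (+) for Ube2c, chr7:122159335-122159484 (+) for Plk1, chr2:69206164-69206313 (-) for Spc25, chr4:118437294-118437443 (-) for Cdc20 and chr11:43425932-43426081 (-) for Pttg1.
Cdc25b: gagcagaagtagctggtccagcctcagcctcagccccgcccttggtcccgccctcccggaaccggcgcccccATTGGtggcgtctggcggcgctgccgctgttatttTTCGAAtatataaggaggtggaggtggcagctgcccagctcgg
Ube2c: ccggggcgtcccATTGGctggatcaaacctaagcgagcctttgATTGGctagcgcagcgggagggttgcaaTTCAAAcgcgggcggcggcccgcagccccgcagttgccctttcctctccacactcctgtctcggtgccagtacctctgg
Plk1: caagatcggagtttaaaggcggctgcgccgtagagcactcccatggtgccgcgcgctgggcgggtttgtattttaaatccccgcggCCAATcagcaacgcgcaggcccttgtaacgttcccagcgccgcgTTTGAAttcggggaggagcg
Spc25: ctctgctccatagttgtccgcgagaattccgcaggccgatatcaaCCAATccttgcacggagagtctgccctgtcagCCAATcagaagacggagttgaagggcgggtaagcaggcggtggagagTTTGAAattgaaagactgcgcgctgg
Cdc20: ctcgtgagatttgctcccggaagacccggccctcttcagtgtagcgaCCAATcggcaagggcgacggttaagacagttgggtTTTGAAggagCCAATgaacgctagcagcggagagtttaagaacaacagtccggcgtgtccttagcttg
Pttg1: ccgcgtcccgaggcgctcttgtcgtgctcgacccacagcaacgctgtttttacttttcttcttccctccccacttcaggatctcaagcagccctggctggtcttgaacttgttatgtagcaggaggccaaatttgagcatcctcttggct

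In these 6 windows the CHR began within 30 bases of the start in Cdc25b, Ube2c, Plk1, Spc25 and Cdc20, each time with at least 1 CCAAT box before it, and the Pttg1 window held no match to any of the 3 motifs. Such windows were not particular to the gene that rose: 7 of the 39 genes had no match, of which Mad2l1, Mybl2 and Nusap1 fell and Birc5, Mad1l1 and Nuf2 did not pass. Over the 39 genes, 24 (61.5%, Wilson 95% interval 45.9 to 75.1%) had a CHR match in a window, against 21.7% of 27025 genes in the RefSeq table. CCAAT boxes were matched in 29 of 39 (74.4%) against 41.1%, and E2F sites in 8 of 39 (20.5%) against 9.20%. A CHR and a CCAAT box stood together in 21 of 39 (53.8%), against 9.65% of all genes. The genes of the RefSeq table were not limited to those expressed here, as the 39 are, so these shares compare unlike sets. In the 34 genes with 1 window each, 20 of 24 CHR matches and 19 of 45 CCAAT boxes began within 50 bases of the start. The median position of the boxes was -55 bases. Of the 45 boxes, 39 began before the start, but 250 of the 300 bases of a window lie there. Positions in the promoters of other genes were not compared. Among the 21 lower genes with a window, 15 had a CHR and 15 a CCAAT box, and among the other 18 genes 9 had a CHR and 14 a CCAAT box. A match is a run of letters and not a measured binding site.

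**Figure D1:**
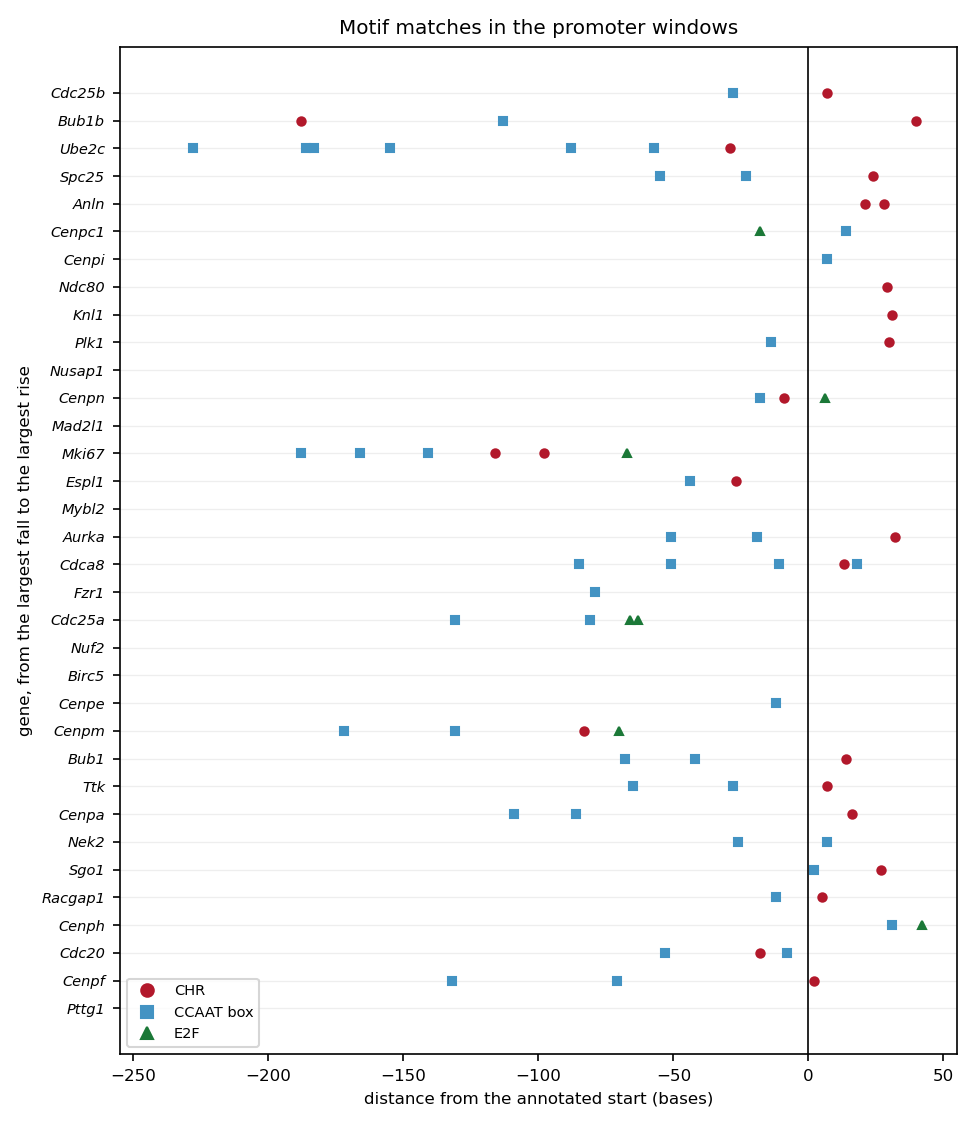
Positions of CHR (circles), CCAAT (squares) and E2F (triangles) matches in the promoter windows of 34 genes, by distance in bases from the annotated start on the horizontal axis, with genes ordered from the largest fall to the largest rise. The 5 genes with several windows are not drawn. CHR matches gather near the start, and most CCAAT boxes lie before it, where most of each window also lies. In 6 drawn genes there is no match: Nusap1, Mad2l1, Mybl2, Nuf2, Birc5 and Pttg1.

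Mitotic transcripts were lower in resistant blasts in many members and by small amounts. Of the 46 genes, 23 fell, 1 rose and 22 did not pass the test (quasi-likelihood F test of edgeR, resistant over sensitive, Benjamini-Hochberg adjusted over all 13414 genes, threshold 0.05). The 23 falls stood against a share of 20.8% lower among all tested genes, and the 1 rise against 18.5% higher. Among the 9033 genes with a mean of at least 10 CPM, a level that each of the 46 exceeded, 21.3% fell and 20.8% rose. The median log2 fold change was -0.17 over the 46 genes and -0.01 over all tested genes. Falls ranged from 0.14 to 0.71 on the log2 scale, 2 of the 23 exceeded 1.5-fold, and no gene changed by more than 2-fold. All 3 resistant libraries lay below all 3 sensitive ones in 28 of the 46 genes (60.9%, against 27.2% of all tested genes) and above them in 3 (against 25.2%). Because the genes were chosen with earlier results of these data known, the gaps between these shares are a description and not a test.

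The number of falls rested in part on sensitive library 2. Without it, 13 of the 23 falls passed, the same 13 that passed in each of the 13 alternative fits, and the median over the 46 genes was -0.14. In that fit 28.3% of the 46 genes fell, against 15.1% of all tested genes. These 13 were Cdc25b, Wee1, Spc24, Bub1b, Ube2c, Spc25, Anln, Cenpc1, Cenpi, Prc1, Ndc80, Plk1 and Nusap1. The call of Pttg1 was kept in all 13 fits, with edgeR, DESeq2 or limma-voom adjusted p-values between 0.00847 and 0.0452.

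**Figure D2:**
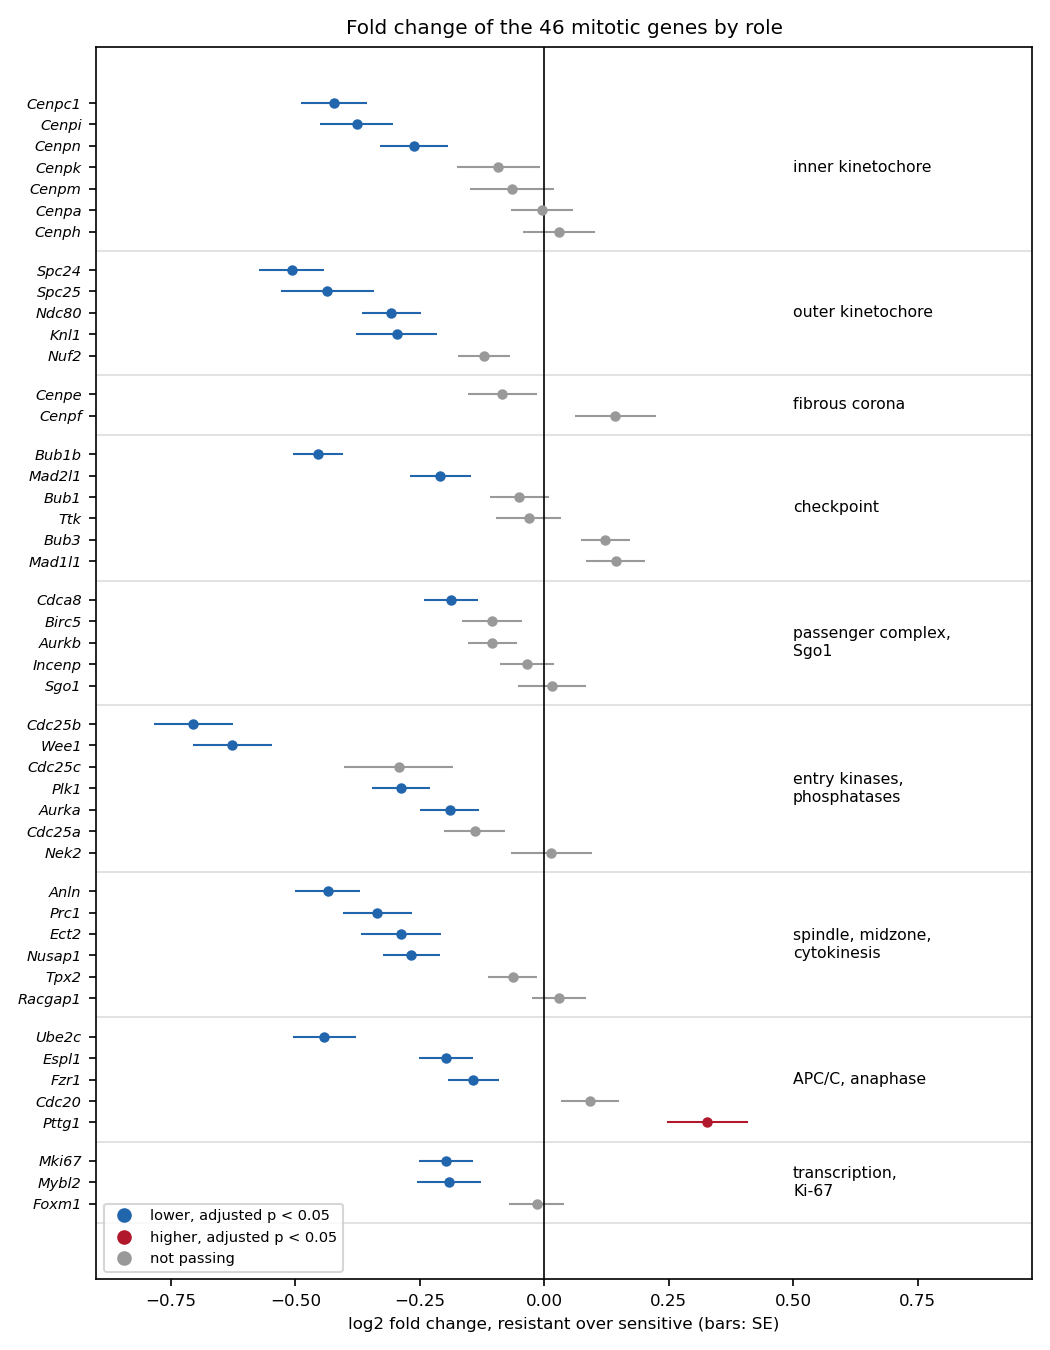
Log2 fold change of each of the 46 genes, resistant over sensitive, on the horizontal axis, with bars for the SE, grouped by role; blue points fell, the red point rose and grey points did not pass the edgeR test. Falls number 3 of 7 in the inner kinetochore, 4 of 5 in the outer kinetochore, 0 of 2 in the fibrous corona and 2 of 6 in the checkpoint. They number 1 of 5 in the passenger complex with Sgo1 and 4 of 7 in the entry kinases and phosphatases. The spindle and cytokinesis group has 4 of 6, the APC/C and anaphase group 3 of 5, and the transcription factors with Ki-67 2 of 3. Among all tested genes, 20.8% fell.

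**Figure D3:**
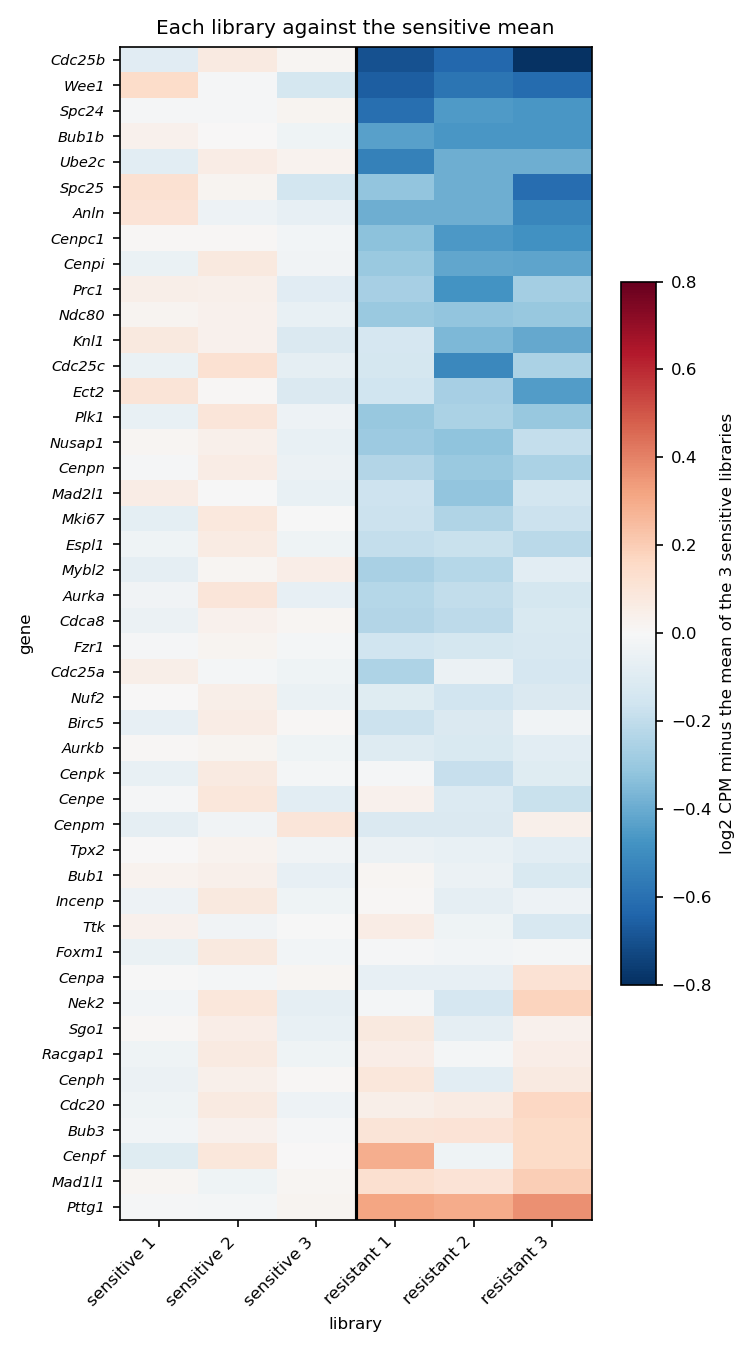
Log2 CPM of each gene in each of the 6 libraries minus the mean of the 3 sensitive libraries, with genes ordered by fold change from Cdc25b to Pttg1. The 3 resistant columns are blue together for the upper genes, and Pttg1, Mad1l1 and Bub3 at the foot are red in all 3.

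The inner kinetochore, which sits on centromeric CENP-A chromatin, split between its subunits, with 3 of 7 genes lower, 0 higher and 4 not passing. Cenpc1, whose product CENP-C bridges CENP-A nucleosomes and the outer kinetochore, measured 52.2, 52.1 and 50.9 CPM in the sensitive libraries and 41.2, 37.5 and 37.0 CPM in the resistant ones. The groups were well apart, and the gene fell by 0.42 ± 0.07 on the log2 scale (SE, edgeR adjusted p = 0.000757). Cenpi, a subunit of the constitutive network, measured 36.4, 39.9 and 37.1 CPM and then 30.7, 28.4 and 28.2 CPM, a fall of 0.38 ± 0.07 (adjusted p = 0.00255). Cenpn, which reads the CENP-A nucleosome, measured 35.9, 37.6 and 35.0 CPM and then 30.7, 29.4 and 30.3 CPM, a fall of 0.26 ± 0.07 (adjusted p = 0.0118) that was lost without sensitive library 2 (0.0697). Cenpa itself, the centromeric histone H3 variant, had the same mean in both groups within its spread, 91.2 ± 0.899 and 90.9 ± 6.69 CPM. The network subunit genes Cenph (0.03 ± 0.07), Cenpk (-0.09 ± 0.08) and Cenpm (-0.07 ± 0.08) had overlapping groups. Cenpc1 shares a stretch of at least 200 bases at 95% identity with a transcript of Gtdc1, the 1 member with such a stretch in another gene of the table, and how the counting treated shared reads is not given.

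The outer kinetochore, which grips microtubules through the NDC80 complex and docks the checkpoint on KNL1, had 4 of 5 genes lower and all 5 with separate groups. Spc24, which with SPC25 forms the end of the NDC80 complex that faces the chromosome, measured 58.5, 58.5 and 59.7 CPM in the sensitive libraries and 38.8, 43.0 and 42.6 CPM in the resistant ones. The values within each group lay close together, and the fall of 0.51 ± 0.07 (adjusted p = 0.000196) was exceeded in size only by those of Cdc25b and Wee1. Spc25 measured 57.9, 54.1 and 48.2 CPM and then 42.7, 40.7 and 34.9 CPM, a fall of 0.44 ± 0.09 (adjusted p = 0.0043). Ndc80, the microtubule-binding subunit, measured 65.3, 65.7 and 61.6 CPM and then 52.1, 51.5 and 52.0 CPM, with a fall of 0.31 ± 0.06 (adjusted p = 0.00235). Its partner Nuf2 went from 122 ± 4.21 to 112 ± 2.22 CPM, with separate groups but a log2 fold change of -0.12 ± 0.05 that did not pass (adjusted p = 0.09). Knl1, the scaffold for the BUB proteins, measured 98.5, 95.3 and 86.0 CPM and then 84.9, 72.5 and 70.1 CPM (-0.30 ± 0.08, adjusted p = 0.0153). Leaving out either of sensitive libraries 1 and 2 or of resistant libraries 2 and 3 ended the call of Knl1 (adjusted p up to 0.064).

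Ratios of 2 transcripts within a library, which are free of any scaling between libraries, set these subunits against each other. The ratio of Spc24 to Nuf2 counts was 0.479, 0.463 and 0.506 in the sensitive libraries and 0.340, 0.391 and 0.378 in the resistant ones. For Ndc80 to Nuf2 it was 0.534, 0.520 and 0.522 and then 0.457, 0.469 and 0.461. Neither set of ratios overlapped between the groups. The pairs here and below were chosen after the values were seen, and 12 ratios were computed in all. With 3 libraries against 3 the exact two-sided permutation test cannot go below p = 0.1, which 9 of the 12 reached (0.133 with Benjamini-Hochberg adjustment). For pairs chosen in this way, that p-value only restates that the groups were separate. Single genes had separate groups in 27.2% (lower) and 25.2% (higher) of all tested genes, and ratios of other gene pairs were not computed. The ratios here and below are therefore a description and not a test.

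Both genes of the fibrous corona, the outermost layer that forms before microtubules attach, had overlapping groups. Cenpe, a kinesin that carries chromosomes to the spindle equator, measured 132, 142 and 126 CPM in the sensitive libraries and 136, 123 and 117 CPM in the resistant ones (-0.08 ± 0.07, adjusted p = 0.364). Cenpf, a large microtubule-binding protein gene of the corona, went from 103 ± 6.57 to 113 ± 12.5 CPM (0.14 ± 0.08, adjusted p = 0.192). Without resistant library 2, the lowest of the 3 resistant libraries for Cenpf, that gene passed as higher (0.23, adjusted p = 0.032).

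Among the 6 spindle assembly checkpoint genes, 2 fell, 0 rose and 4 did not pass. Bub1b, which encodes BUBR1, the checkpoint protein that binds and inhibits APC/C-CDC20, measured 198, 194 and 189 CPM in the sensitive libraries and 143, 141 and 140 CPM in the resistant ones. This was a fall of 0.45 ± 0.05, with the smallest adjusted p of the 46 genes (6.31e-05). Mad2l1, encoding MAD2, measured 131, 125 and 121 CPM and then 112, 101 and 113 CPM (-0.21 ± 0.06, adjusted p = 0.0213), and this call was lost without sensitive library 1, sensitive library 2 or resistant library 2 (adjusted p up to 0.0771). The genes of their partners in the same inhibitory complex and in its template had values that leaned the other way without passing. Bub3 measured 191, 198 and 193 CPM and then 208, 209 and 216 CPM (0.12 ± 0.05, adjusted p = 0.0719). Mad1l1, the MAD2 template at the kinetochore, measured 56.3, 54.3 and 56.2 CPM and then 60.6, 59.9 and 63.6 CPM (0.14 ± 0.06, adjusted p = 0.0772). The Bub1b to Bub3 ratio was 1.04, 0.980 and 0.982 in sensitive and 0.690, 0.672 and 0.650 in resistant libraries. The Mad2l1 to Mad1l1 ratio was 2.26 ± 0.0982 and 1.77 ± 0.0830, and neither ratio overlapped between groups. The kinase genes Bub1 (-0.05 ± 0.06) and Ttk (-0.03 ± 0.07), which start checkpoint signalling, had overlapping groups.

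**Figure D4:**
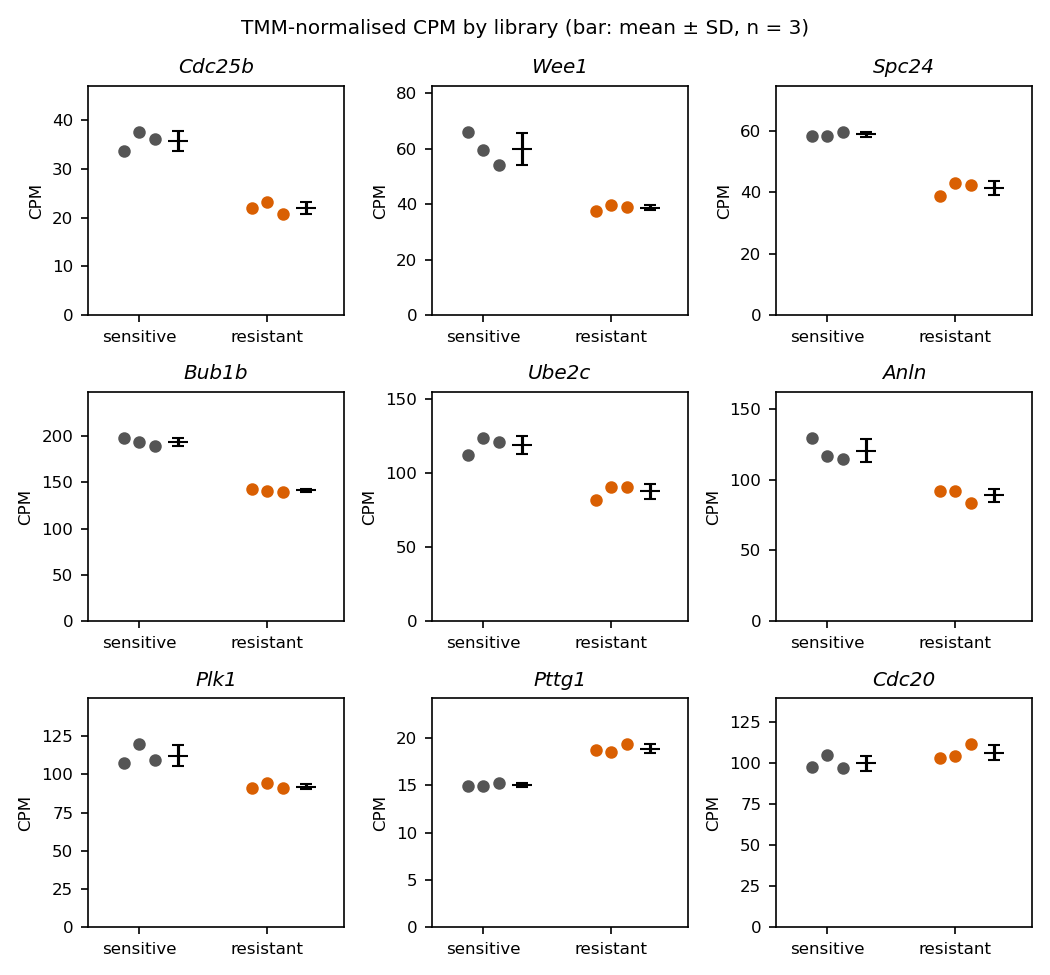
TMM-normalised CPM of 9 genes in each of the 3 sensitive (grey) and 3 resistant (orange) libraries, with the mean and SD as bars and each vertical axis starting at 0. The groups are apart in 8 of the panels, with Pttg1 higher in resistant libraries, and overlap for Cdc20.

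The chromosomal passenger complex, which corrects faulty attachments, had 1 of 4 genes lower. Cdca8, encoding the subunit borealin, measured 134, 142 and 140 CPM in the sensitive libraries and 118, 120 and 128 CPM in the resistant ones. It fell by 0.19 ± 0.05 (adjusted p = 0.0201), and the call was lost without sensitive library 2, sensitive library 3 or resistant library 2 (adjusted p up to 0.0978). The kinase gene Aurkb had separate groups at 130 ± 2.57 and 121 ± 1.67 CPM without passing (-0.10 ± 0.05, adjusted p = 0.121). Birc5, encoding survivin (-0.10 ± 0.06), and the scaffold gene Incenp (-0.03 ± 0.05) had overlapping groups, and so did Sgo1 (0.02 ± 0.07), the guardian of centromeric cohesin.

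Regulators of mitotic entry held both of the falls beyond 1.5-fold. Of the 7 genes, 4 fell, 0 rose and 3 did not pass. Cdc25b, a phosphatase that starts the activation of CDK1 at the centrosome, measured 33.5, 37.5 and 36.1 CPM in the sensitive libraries and 22.0, 23.1 and 20.6 CPM in the resistant ones, 1.63-fold lower (-0.71 ± 0.08, adjusted p = 7.81e-05). Wee1, the kinase that places the inhibitory phosphate which CDC25 removes, measured 66.1, 59.5 and 54.3 CPM and then 37.8, 39.8 and 38.9 CPM, 1.54-fold lower (-0.63 ± 0.08, adjusted p = 0.000175). An activator and an inhibitor of CDK1 were both lower, and their ratio (Cdc25b to Wee1) overlapped between groups at 0.601 ± 0.0827 and 0.564 ± 0.0292. The other CDC25 phosphatases did not pass, with Cdc25a at -0.14 ± 0.06 (adjusted p = 0.0965) and Cdc25c at -0.29 ± 0.11 (0.0539), both with separate groups. The ratio of Cdc25b to Cdc25a was 0.305 ± 0.0248 in sensitive and 0.206 ± 0.0147 in resistant libraries, with no overlap. Cdc25b overlaps an exon of Spef1 on the opposite strand, which went from 4.69 to 1.82 CPM, and the strand setting of the counting is not given.

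The polo kinase gene Plk1, needed for entry, spindle poles and cytokinesis, measured 108, 120 and 109 CPM in the sensitive libraries and 90.8, 94.2 and 91.1 CPM in the resistant ones (-0.29 ± 0.06, adjusted p = 0.00314). Aurka, the spindle pole kinase that activates PLK1, measured 107, 116 and 104 CPM and then 92.9, 95.2 and 98.9 CPM (-0.19 ± 0.06, adjusted p = 0.027). The groups of both genes were apart, but the Aurka call was lost without sensitive library 2, resistant library 1 or resistant library 2 (adjusted p up to 0.149). Nek2, a kinase of centrosome separation, had overlapping groups (0.01 ± 0.08).

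Spindle, midzone and cytokinesis genes had 4 of 6 members lower, 0 higher and 2 not passing. Anln, encoding anillin, the scaffold of the contractile ring, measured 129, 117 and 115 CPM in the sensitive libraries and 91.6, 91.7 and 83.6 CPM in the resistant ones (-0.43 ± 0.07, adjusted p = 0.000536). Prc1, which bundles the antiparallel microtubules of the midzone, measured 143, 143 and 131 CPM and then 116, 99.8 and 115 CPM (-0.34 ± 0.07, adjusted p = 0.00357). Nusap1, a microtubule-stabilising protein gene, measured 115, 117 and 109 CPM and then 92.8, 91.2 and 99.7 CPM (-0.27 ± 0.06, adjusted p = 0.00445). In each of these genes the lowest sensitive library stood above the highest resistant one. Ect2, the exchange factor that switches on RhoA at the cleavage furrow, measured 115, 108 and 99.1 CPM and then 96.1, 89.1 and 78.6 CPM (-0.29 ± 0.08, adjusted p = 0.0168), a call lost without sensitive library 1, sensitive library 2 or resistant library 3 (up to 0.0724). Racgap1, which recruits ECT2 to the midzone, was at 152 ± 6.58 and 156 ± 3.999 CPM (0.03 ± 0.05), and Tpx2, the activator of Aurora A on the spindle, at 200 ± 3.66 and 191 ± 2.28 CPM (-0.06 ± 0.05, adjusted p = 0.329).

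Genes of the APC/C and of anaphase moved in both directions, with 3 of 5 lower and 1 higher. Ube2c, the conjugating enzyme that starts ubiquitin chains for the APC/C, measured 112, 124 and 121 CPM in the sensitive libraries and 81.8, 90.7 and 90.7 CPM in the resistant ones (-0.44 ± 0.06, adjusted p = 0.000391). Pttg1, encoding securin, the inhibitor of separase that the APC/C destroys at anaphase, measured 15.0, 14.9 and 15.2 CPM and then 18.8, 18.5 and 19.4 CPM. It rose by 0.33 ± 0.08 (adjusted p = 0.00927), the 1 rise among the 46. Espl1, encoding separase itself, measured 95.5, 102 and 95.6 CPM and then 85.6, 86.4 and 84.1 CPM. The fall of Espl1 was 0.20 ± 0.05 (adjusted p = 0.0156) and did not pass without sensitive library 2 (0.0974). Securin and separase transcripts thus had opposite signs of change, and the Pttg1 to Espl1 ratio went from 0.157, 0.146 and 0.159 to 0.219, 0.214 and 0.231 with no overlap.

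Of the APC/C activators, 1 passed the test. Cdc20, the activator in metaphase and target of the checkpoint, measured 97.5, 105 and 97.1 CPM in the sensitive libraries and 103, 104 and 112 CPM in the resistant ones (0.09 ± 0.06, adjusted p = 0.236). Fzr1, encoding CDH1, the activator in late mitosis and G1, measured 86.9, 88.7 and 86.6 CPM and then 78.3, 79.3 and 80.0 CPM (-0.14 ± 0.05, adjusted p = 0.049). The Fzr1 call was lost in 12 of 13 alternative fits, each left-out library among them (adjusted p up to 0.177). Its opposite-strand neighbour with overlapping exons, Mfsd12, fell from 54.6 to 39.8 CPM. The ratio of Cdc20 to Fzr1 was 1.14 ± 0.0354 and 1.34 ± 0.0466 with no overlap, and that of Ube2c to Cdc20 was 1.19 ± 0.0496 and 0.825 ± 0.0392, also with none.

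Of the 2 transcription factor genes of the list, Foxm1, an activator of G2 and M phase genes, was at 88.6 ± 4.26 and 87.6 ± 0.433 CPM (-0.02 ± 0.06, adjusted p = 0.85). Mybl2, which joins the MuvB complex to switch on these genes, measured 93.6, 99.4 and 102 CPM in the sensitive libraries and 82.1, 83.9 and 92.8 CPM in the resistant ones (-0.19 ± 0.06, adjusted p = 0.0373). Leaving out either of sensitive libraries 2 and 3 or of resistant libraries 1 and 2 ended its call (adjusted p up to 0.141), and so did upper quartile scaling (0.0534). Mki67, encoding the proliferation antigen Ki-67, measured 711, 798 and 751 CPM and then 667, 635 and 667 CPM (-0.20 ± 0.05, adjusted p = 0.0149). The groups were apart, and without sensitive library 2 or resistant library 2 the Mki67 call was lost (0.0914 and 0.058).

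Compared per length, as CPM per kilobase of merged exon, levels spanned more than an order of magnitude. Mki67 stood first in both, at 74.9 in sensitive and 65.2 in resistant libraries, and Cdc20 second, at 53.5 and 57.0. Rank 3 was held by Plk1 in sensitive libraries at 51.1 and by Incenp in resistant libraries at 47.9. Ube2c went from rank 5 to rank 8 and Bub1b from rank 6 to rank 9, with 45.8 and 45.3 in sensitive and 33.7 and 33.1 in resistant libraries. The lowest levels per kilobase were those of Cenpk and Cdc25c, at 4.24 and 4.43 in sensitive libraries. Exon lengths came from a later annotation than the authors'. They were merged over all annotated exons of a gene, which can exceed the length of the transcript that is present. These levels and the ranks between genes are therefore approximate.

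Other genes of chromosome segregation moved in both directions. Of 82 genes on a list of further kinetochore, APC/C, cohesin, condensin, spindle and entry genes, 20 fell, 7 rose and 55 did not pass, with a median log2 fold change of -0.11. The share that fell, 24.4%, was near the 20.8% of all tested genes, and the share that rose, 8.54%, stood beside 18.5% of all tested genes. With libraries scaled by their totals alone, 4 rose and 25 fell, and without sensitive library 2, 3 rose and 13 fell. The largest falls of this list were Cenpl, an inner kinetochore gene (-0.43 ± 0.08, adjusted p = 0.00244), Ensa, encoding an inhibitor of the mitotic exit phosphatase PP2A (-0.42 ± 0.06, adjusted p = 0.000417), and Mis18a, needed to load CENP-A (-0.41 ± 0.08, adjusted p = 0.00246). The largest rises were Cenpw, another inner kinetochore gene (0.28 ± 0.08, adjusted p = 0.0197), the cohesin gene Stag1 (0.28 ± 0.06, adjusted p = 0.00382), and Pmf1 of the MIS12 complex (0.27 ± 0.06, adjusted p = 0.0074). The call of Cenpw was lost without sensitive library 1, 2 or 3. By complex, 5 of 8 condensin genes fell and 0 rose, 2 of 4 CENP-A loading genes fell and 0 rose, and 3 of 11 cohesin genes rose and 1 fell. Of the 3 cohesin rises, those of Wapl and Pds5a were lost with libraries scaled by their totals alone and without sensitive library 2, sensitive library 3 or resistant library 1, which left Stag1. Of the 16 genes of the APC/C and its direct partners, 2 fell, 1 rose and 13 did not pass. All 5 genes of the MuvB core, which occupies CHR elements, did not pass. Most of all tested genes also did not pass, as 20.8% fell and 18.5% rose.

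Genes of DNA replication, the other proliferative phase, served as a comparison list. Of 12 S phase genes, 2 fell (Cdc45 and Slbp), 0 rose and 10 did not pass, with a median log2 fold change of -0.03. Among all tested genes, 20.8% fell and 18.5% rose. The 46 mitotic genes summed to 4958, 5168 and 4901 CPM in the sensitive libraries and 4533, 4394 and 4521 CPM in the resistant ones, a mean 10.5% lower, with no overlap. Their sum as a ratio to that of the 12 S phase genes was 1.13, 1.203 and 1.16 in sensitive and 1.13, 1.03 and 1.03 in resistant libraries. These ratios overlapped between the groups through resistant library 1 (exact permutation p = 0.2, two-sided).

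**Figure D5:**
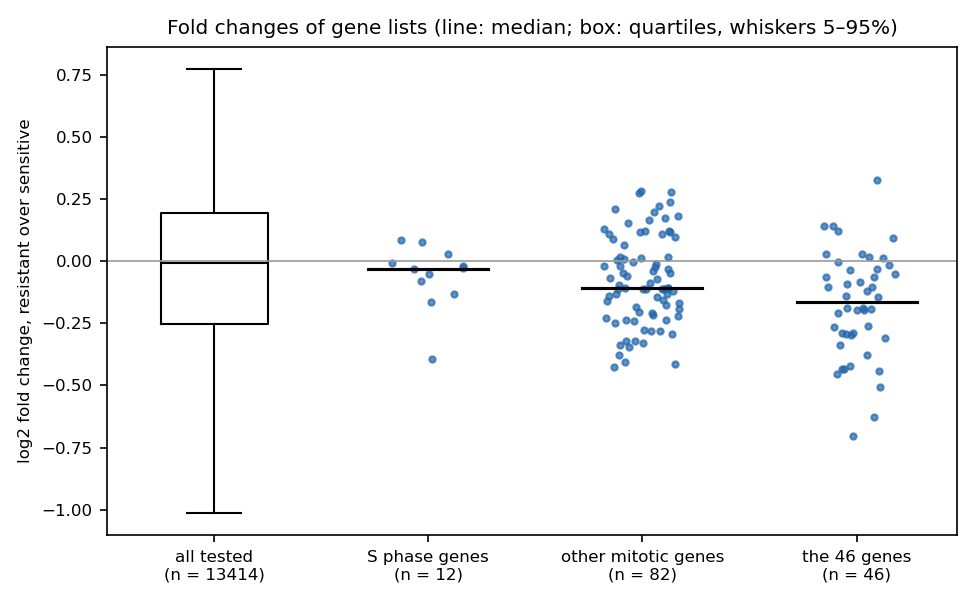
Log2 fold changes, resistant over sensitive, of all tested genes (box with quartiles and whiskers at 5% and 95%) and of each gene of the S phase list, the further chromosome segregation genes and the 46 mitotic genes (points, with the median as a line). The medians stand at -0.01, -0.03, -0.11 and -0.17.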

How the data were processed

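RNA sequencing counts from 3 sensitive and 3 resistant libraries were used. The authors deposited whole-number counts per Ensembl gene with no normalisation. The submitters' processing notes name TopHat2, RSEM and mm9; for the annotation, strand setting and treatment of shared reads, no statement was found in the sources. All 6 columns matched 1 sample each, and 0 were unused. Symbols, exon lengths, overlaps and chromosomes came from GENCODE M21, a later build; 31636 of 35932 IDs matched. By that annotation, 10 of the 46 genes overlap an exon of another gene in the table, 9 of them with opposite strands.

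Counts were filtered with filterByExpr, scaled with factors of 0.978 to 1.02 (TMM) and modelled across all genes in R 4.3.3 with edgeR 4.0.16 (glmQLFit, glmQLFTest, group alone). SE is the log2 fold change divided by the square root of F. The fit was tested on simulated data with planted changes of 1.5-fold or more. Most falls described here were smaller, so that test does not speak to them. Replicates differed by more than sampling noise (smallest chi-square per degree of freedom 3.92), so each counted as 1 sample. Values of every library were given for up to 4 passing genes per role with the smallest adjusted p, and for the most abundant where none passed; a few others are named besides. The genes, lists and roles were chosen with earlier results of these data known. Alternatives were other scalings, DESeq2 1.42.0, limma-voom (limma 3.58.1), no low-count filter, a replicate block, and each library left out.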

Additional observations from a re-analysis of the deposited data

How the results depend on the processing

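No passing call of a member turned to the other direction under the 13 alternatives, while 8 members that did not pass (Cenpa, Cenph, Ttk, Incenp, Sgo1, Nek2, Racgap1 and Foxm1) took the other sign in at least 1. Of 598 recomputed member values, 553 kept their side of the threshold, 37 lost a call and 8 gained one. With 1 library left out, 13 to 21 of the 46 genes fell and 1 to 2 rose (2 without resistant library 2, when Cenpf joined Pttg1), and on the list of 82 further genes 13 to 19 fell and 3 to 9 rose. In these fits 15.1 to 19.8% of all tested genes fell, against 28.3 to 45.7% of the 46 and 15.9 to 23.2% of the further list. Falls dropped most without sensitive library 2, to 13 on either list, and rises on the further list dropped to 3 without sensitive library 2 or 3. Scaling by library totals alone gave a median of -0.20 for the 46 genes and 27 falls, with 4 rises on the further list, while the median of all genes moved to -0.04. The labels do not say whether libraries with the same replicate number belong together. Deviations of such libraries correlated at 0.07, 0.02 and -0.05 and did not each correlate best with their own number. With 3 libraries per group this cannot exclude a link. With the replicate block, 22 of the 46 genes fell and 1 rose, and 23 and 6 of the further list. Searching the coding strand alone lowered the share of promoters with a CCAAT box to 51.3%, with an E2F site to 10.3% and with a CHR to 48.7%, against 23.7%, 4.88% and 13.2% of all genes searched in the same way. Precision differed between members: Cdc25c, with the lowest count in a library (334), did not pass at -0.29 ± 0.11, while Plk1 passed at -0.29 ± 0.06. Precision did not follow the count alone. Pttg1, with a mean count of 465 against 548 for Cdc25c, passed at 0.33 ± 0.08.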

Other observations

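Of the 46 genes, 10 lay on chromosome 2 (Knl1, Spc25, Bub1, Bub1b, Aurka, Cdc25b, Tpx2, Nusap1, Ube2c and Mybl2). Of these 10, 8 fell and 0 rose. Chromosome 2 as a whole did not stand apart in the same way: of its 1081 tested genes 22.1% fell and 18.6% rose, with a median log2 fold change of -0.00. Chromosome 7 held 5 of the genes, of which Plk1, Wee1, Prc1 and Mki67 fell, and 25.2% of its 1005 tested genes fell, with a median of -0.04. This grouping by chromosome was looked at after the values were seen.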
